A study of Mus musculus with 6 samples.

Results

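The genes of S phase described here copy the chromosomes and pack the new DNA into nucleosomes. They were chosen as a list of 37 gene symbols, and all 37 were found among the 23366 gene symbols of the deposited count tables. The libraries hold poly(A) RNA of 6 whole embryos of the mouse at E10.5, of which 3 were knockouts of histone H3.3 and 3 were controls. Knockout embryos were H3f3afl/- and H3f3bfl/-, so that each of the genes of histone H3.3 had a null and a floxed allele. Control embryos were H3f3afl/+ and H3f3bfl/+. Both groups carried Sox2-CreTg/0, a Cre recombinase driven in the epiblast, and both were Trp53-/-, on a mixed background of C57BL/6, CD1 and 129. The floxed alleles of the controls were thus open to deletion too, and neither group had p53. The labels do not say which embryos were littermates, and the p-values here reflect no more than the scatter among these 6 samples, which may be partly technical. In whole embryos, fewer cells of a type and less RNA per cell cannot be told apart.

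DNA replication starts at origins, where Cdc6 and Cdt1 load the MCM helicase in G1, and the GINS complex and Cdc45 then activate it. Polymerase alpha with primase starts each strand, the loader RFC places the PCNA clamp, and polymerases delta and epsilon extend the DNA. Behind the fork, CAF-1, made of Chaf1a, Chaf1b and Rbbp4, places the replication-coupled histones H3.1 and H3.2 on new DNA, with Asf1b and Nasp as carriers of histone H3. Histone H3.3 enters chromatin by other chaperones, outside replication. Many of these genes are induced together by E2F transcription factors at the start of S phase.

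The labels were first checked on the deleted genes. H3f3a had 1818, 1744 and 1996 counts in knockouts 1, 2 and 3, against 9851, 10775 and 9685 counts in controls 1, 2 and 3. H3f3b had 12164, 13626 and 11431 counts in the knockouts against 19717, 21379 and 18942 counts in the controls. The scaled level of H3f3a fell by 80.6% and that of H3f3b by 34.2%, with edgeR adjusted p-values of 1.5e-06 and 0.0257. Trp53 had 148, 86 and 136 counts in the knockouts and 64, 87 and 88 counts in the controls. Counts of a whole gene do not show whether the Trp53 reads came from outside the deleted part, so they do not check that label. Gene counts per library were 24952853 to 30461689, and every member had at least 600 counts in every embryo. The SD between embryos was below the Poisson counting error of the mean count for 5 members in knockouts and for 1 in controls, so for those genes the spread was no larger than counting error.

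None of the 37 S-phase genes passed the test, and their levels in the knockouts were close to those of the controls. The largest values in either direction were a log2 fold change of -0.26 ± 0.11 (SE) for Gins4 and of 0.28 ± 0.14 for Pole (knockout over control, n = 3 each). By edgeR's quasi-likelihood test over 15075 genes at an adjusted p under 0.05, 0 members were lower and 0 higher, where 0.955% of all tested genes were called lower and 0.551% higher, 1.51% in either direction. DESeq2 and limma-voom also called 0 of 37. At an unadjusted p under 0.05, 2 members, Fen1 and Gins4, were lower and 0 higher, beside 8.53% and 10.7% of all tested genes. The 3 knockouts lay wholly below the 3 controls in 2 members, Fen1 and Rfc3, and wholly above them in 1, Chaf1a. Among all tested genes the groups did not overlap for 12.3% that were lower and 11.8% that were higher.

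**Figure D1:**
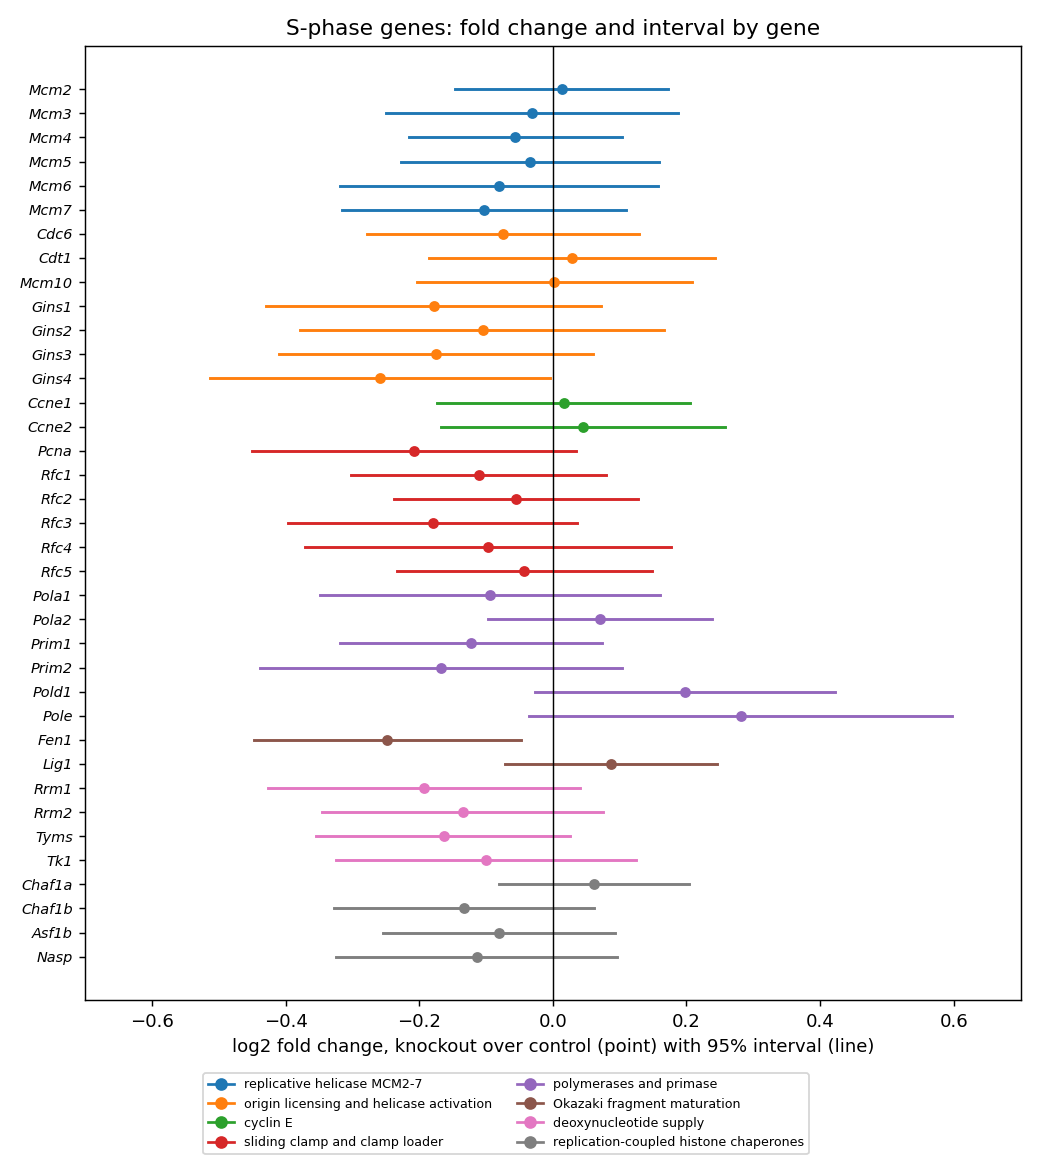
Log2 fold changes of knockout over control embryos (x axis) for the 37 genes (y axis, coloured by role), with 95% intervals as lines. All intervals but those of Fen1 and Gins4 include 0, and they run from -0.513 for Gins4 to 0.598 for Pole.

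The intervals show which sizes of change these embryos leave room for. The 95% interval of the log2 fold change, from edgeR's standard error and its t quantile with no adjustment for the number of genes, lay within 0.5 of 0 for 35 of the 37 genes. It lay within 0.3 of 0 for 15. The exceptions to the wider bound were Gins4, with an interval of -0.513 to -0.004, and Pole, with -0.036 to 0.598. The median log2 fold change of the members was -0.09, with 27 of 37 values below 0, while the median over all tested genes was -0.001 and 50.3% of them were below 0. That median depended on the embryos and the fit: without control 2 it was 0.005, with 18 of 37 values below 0. With plain library totals in place of TMM scaling it was -0.04, with 22 values below 0. With the share of alignments outside genes as a covariate it was also -0.04, with 19 values below 0. In the other direction, it was -0.11 without knockout 2 and -0.14 without control 3, with 30 values below 0 in each.

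The members varied together from embryo to embryo, and control 2 had the highest levels. Its CPM (counts scaled to a common library size with TMM factors) was the highest of the 6 embryos for 31 of 37 members, while control 2 was the highest embryo for 23.1% of all tested genes. The median log2 difference from the control mean was -0.13, -0.04 and -0.08 in knockouts 1, 2 and 3, against -0.04, 0.16 and -0.11 in controls 1, 2 and 3. The summed CPM of the 37 genes was 5948, 6250 and 5984 in the knockouts, against 6229, 7056 and 5964 in the controls. The knockouts thus lay within the range of controls 1 and 3 or close to it, with control 2 above all of them. The SD over 3 embryos was a median of 5.41% of the mean in knockouts and 10.3% in controls, and was larger in the controls for 31 of 37 members. The control SD includes the high control 2. The same share was not computed over all tested genes, so the difference in SD is not shown to be particular to the members.

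**Figure D2:**
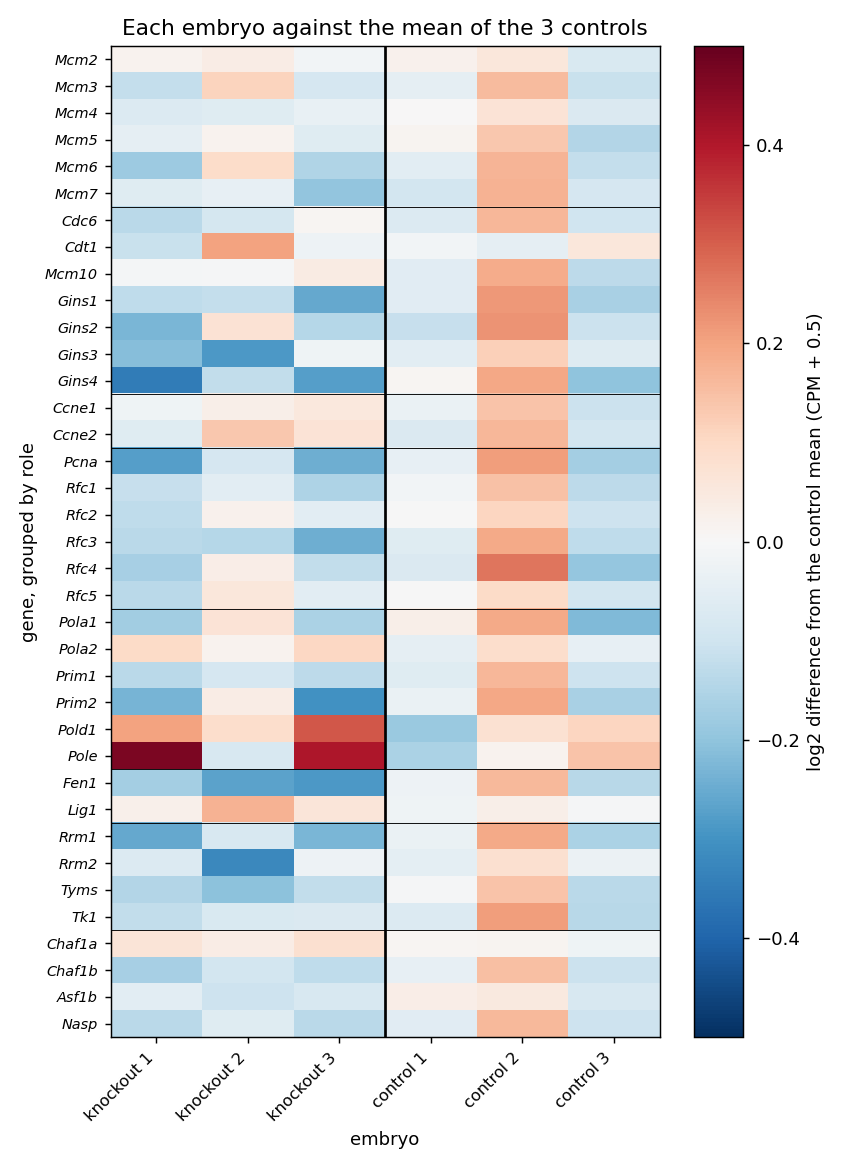
Log2 difference of each embryo (columns, knockouts left) from the mean of the 3 controls for the 37 genes (rows, grouped by role), in CPM with 0.5 added. The column of control 2 is above 0 for nearly all genes, and Pole stands out in knockouts 1 and 3.

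Because E2F factors are known to drive these genes, the promoters were searched for E2F letters. RefSeq promoters of the GRCm38.p6 build, from 250 bases before to 50 bases after the gene start, were found for 29 of the 37 genes, with 33 promoters in all. The motif was searched as TTTCCCGC, TTTCGCGC, TTTGCCGC or TTTGGCGC on both strands, with overlapping matches allowed. It was present in 11 of the 33 member promoters, which is 33.3%, against 2.26% of all 32851 promoters of the table. Those 11 belonged to Mcm3, Mcm5, Mcm6, Mcm7, Cdc6, Cdt1, Gins3, Rfc3, Pola1, Pold1 and Lig1. Many of the members are known E2F genes, so a larger share could be foreseen. The promoters of the table were not matched to those of the members in base composition. The shorter CCAAT letters, also read on both strands, were in 54.5% of member promoters and 37.4% of all. The 200 bases before the start of 5 members follow, 5′ to 3′ on the strand of the gene, with E2F matches in capitals and runs of capitals over 8 letters holding overlapping matches. Mcm5 and Mcm6 are shown as helicase subunits with several matches, Cdc6 for the loading of the helicase and Rfc3 for the clamp loader. Chaf1a is shown as a histone chaperone with no exact match in this window. Near matches were not searched, and the Chaf1a stretch holds ttcccgc, which lacks only the first letter of TTTCCCGC.
Mcm5 (chr8:75109309-75109508, plus strand): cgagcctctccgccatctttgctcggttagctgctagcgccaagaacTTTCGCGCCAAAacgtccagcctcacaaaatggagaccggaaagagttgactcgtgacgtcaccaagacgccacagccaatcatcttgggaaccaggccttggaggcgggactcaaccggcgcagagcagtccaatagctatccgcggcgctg
Mcm6 (chr1:128359706-128359905, minus strand): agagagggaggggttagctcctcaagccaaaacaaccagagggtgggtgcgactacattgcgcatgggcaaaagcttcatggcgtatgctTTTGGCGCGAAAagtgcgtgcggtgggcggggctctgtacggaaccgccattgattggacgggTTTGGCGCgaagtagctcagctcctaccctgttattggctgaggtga
Cdc6 (chr11:98907951-98908150, plus strand): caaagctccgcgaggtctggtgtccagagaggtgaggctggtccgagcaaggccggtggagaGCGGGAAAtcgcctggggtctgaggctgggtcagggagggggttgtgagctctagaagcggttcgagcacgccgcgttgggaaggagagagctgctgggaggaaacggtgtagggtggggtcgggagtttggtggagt
Rfc3 (chr5:151651209-151651408, minus strand): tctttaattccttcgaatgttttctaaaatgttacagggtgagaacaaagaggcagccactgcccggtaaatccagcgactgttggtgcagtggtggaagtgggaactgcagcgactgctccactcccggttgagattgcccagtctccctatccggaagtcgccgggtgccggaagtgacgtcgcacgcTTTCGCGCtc
Chaf1a (chr17:56040216-56040415, plus strand): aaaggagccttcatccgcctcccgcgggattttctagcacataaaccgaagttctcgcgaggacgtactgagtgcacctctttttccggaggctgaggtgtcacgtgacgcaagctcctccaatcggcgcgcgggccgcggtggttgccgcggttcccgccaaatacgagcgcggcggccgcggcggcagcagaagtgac
A match is a run of letters and not a measured site, and no binding was measured here. Control 2 was the highest embryo for 8 of the 11 genes with a match, for 16 of the 18 with a promoter but no match, and for 7 of the 8 with no promoter in the table.

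The replicative helicase is a ring of the 6 subunits encoded by Mcm2 to Mcm7, and its transcripts kept close to the control level. Mcm2 had 296, 300 and 289 CPM in the knockouts, against 296, 303 and 277 CPM in the controls. Its log2 fold change was 0.01 ± 0.07 (SE) with a 95% interval of -0.146 to 0.172. Mcm6 had 328, 398 and 336 CPM in the knockouts, against 360, 419 and 343 CPM in the controls. Knockout 2 and control 2 were the higher embryos of their groups for both Mcm6 and Mcm3, and the groups overlapped for all 6 subunits. The 6 log2 fold changes ran from -0.10 for Mcm7 to 0.01 for Mcm2, and the smallest edgeR adjusted p was 0.568. Mcm7 shares exonic bases with Ap4m1 and Cops6 on the other strand, and the strand setting of the counting is not given in the sources used here, so its counts are less certain. The same holds for Gins2 with Gse1, Ccne2 with Ints8, Rfc2 with Lat2, Rfc4 with Eif4a2, Rfc5 with Wsb2, Fen1 with Tmem258, Tk1 with Afmid and Chaf1a with Ubxn6.

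Genes that load and switch on the helicase included the lowest fold change of the list, that of Gins4. Cdc6, Cdt1 and Mcm10 had log2 fold changes of -0.07, 0.03 and 0.00. The 4 GINS subunits, which join the helicase when an origin fires, had -0.18 for Gins1, -0.11 for Gins2, -0.17 for Gins3 and -0.26 for Gins4. Gins4 had 38.4, 45.1 and 40.6 CPM in the knockouts, against 49.5, 56.3 and 42.7 CPM in the controls. Knockout 2 was above control 3, so the groups overlapped. The unadjusted p of Gins4 was 0.0471 and its edgeR adjusted p 0.253. Without control 2 its log2 fold change was -0.16 with an edgeR adjusted p of 0.509, and without knockout 2 it was -0.33 with 0.0853.

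Cyclin E, which activates the kinase Cdk2 at the entry into S phase, was at the control level in both of its genes. Ccne1 had 68.2, 70.6 and 71.7 CPM in the knockouts, against 67.5, 76.4 and 64.2 CPM in the controls. Ccne2 had 66.7, 76.4 and 73.0 CPM in the knockouts, against 66.1, 78.1 and 65.2 CPM in the controls. For both genes the knockouts lay inside the range of the controls. The intervals of the log2 fold change were -0.173 to 0.205 for Ccne1 and -0.168 to 0.257 for Ccne2.

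The sliding clamp and its loader had log2 fold changes below 0 in all 6 genes, none called. Pcna, the clamp that holds polymerases on DNA, had 365, 416 and 373 CPM in the knockouts, against 429, 510 and 393 CPM in the controls. Its log2 fold change was -0.21 ± 0.11 (SE), with an edgeR adjusted p of 0.318. Knockout 2 was above control 3 for Pcna, and control 2 was far above the other embryos. Rfc3 had 60.5, 60.1 and 56.0 CPM in the knockouts, against 63.7, 75.6 and 60.6 CPM in the controls. Here the groups did not overlap, though knockout 1 and control 3 nearly met, and the edgeR adjusted p was 0.33. Without control 2 the log2 fold changes were -0.10 for Pcna and -0.08 for Rfc3, with edgeR adjusted p-values of 0.64 and 0.647. The smallest edgeR adjusted p-values under other settings came without knockout 2, at 0.119 for Pcna and 0.224 for Rfc3, with Pcna at -0.27. Rfc1, Rfc2, Rfc4 and Rfc5 had values from -0.11 to -0.04. Under the 17 other settings the values of Rfc2, Rfc4 and Rfc5 reached above 0 in at least 1, while those of Pcna, Rfc1 and Rfc3 did not.

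The catalytic subunits of polymerases epsilon and delta had the highest log2 fold changes of the list, and neither passed the test. Pole, the leading strand polymerase, had 157, 107 and 150 CPM in knockouts 1, 2 and 3, against 101, 115 and 125 CPM in controls 1, 2 and 3. Knockouts 1 and 3 were above every control, while knockout 2 was among the controls. Pold1, the lagging strand polymerase, had 77.2, 71.4 and 83.5 CPM in the knockouts, against 59.1, 70.8 and 72.5 CPM in the controls. Its log2 fold change was 0.20 ± 0.10 (SE) with an edgeR adjusted p of 0.306, and that of Pole had an adjusted p of 0.304. Without knockout 2 Pole was called, at 0.43 ± 0.09 and an edgeR adjusted p of 0.0146, as the only member called under any of the settings tried. In that fit 7.55% of 15348 tested genes were called higher, so 1 of 37 members is no more than the general rate.

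The order of the embryos in Pole was also their order in the share of alignments that fell outside genes. That share was 18.3%, 10.6% and 18% in knockouts 1, 2 and 3, against 9.79%, 10.7% and 13.1% in controls 1, 2 and 3. With the share as a covariate the log2 fold change of Pole was -0.05 ± 0.07 (SE), with an edgeR adjusted p of 0.779, and that of Pold1 was 0.07 ± 0.10. Of the knockouts, only knockout 2 had a share within the range of the controls, so that fit rests mostly on knockout 2. Beyond that fit, the part of this share in the result of Pole was not tested. The other subunits of the same polymerases were nearer to 0, with log2 fold changes of 0.07 for Pole2, -0.12 for Pole3, 0.07 for Pole4, -0.09 for Pold2, 0.11 for Pold3 and 0.11 for Pold4. None of these passed the test.

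**Figure D3:**
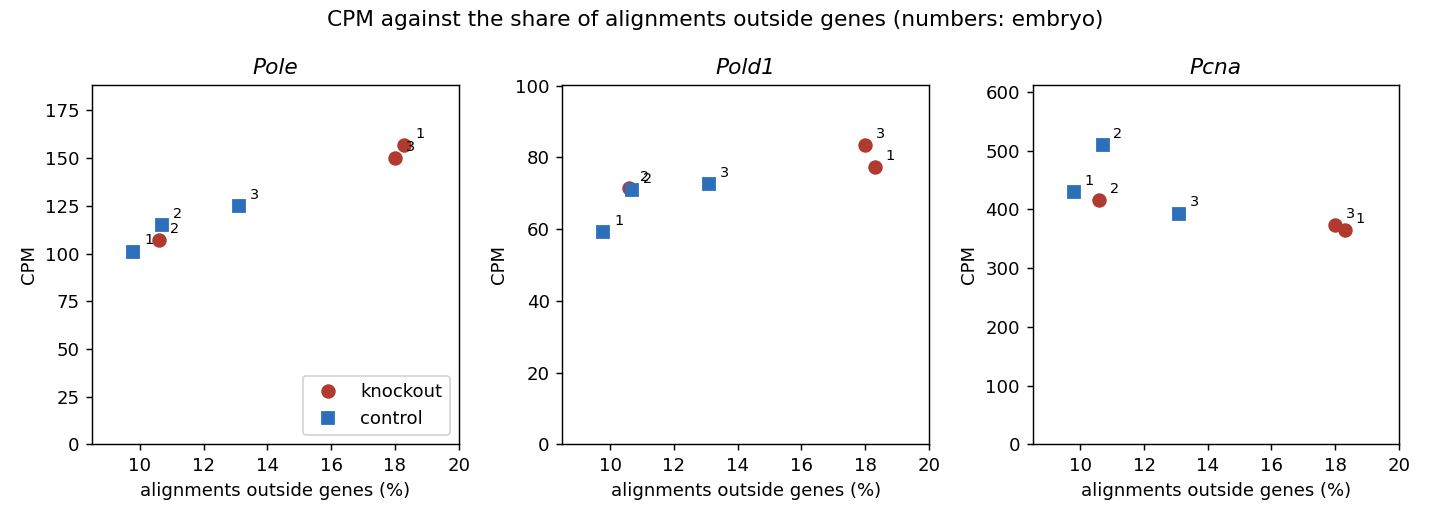
CPM of Pole, Pold1 and Pcna (y axes) against the share of alignments outside genes in % (x axis) in knockouts (red circles) and controls (blue squares), with the embryo number beside each point. Pole is highest in knockouts 1 and 3, at 157 and 150 CPM, where 18.3% and 18% of alignments lay outside genes.

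Polymerase alpha and primase, which lay down the starting primer, had log2 fold changes of -0.09 for Pola1, 0.07 for Pola2, -0.12 for Prim1 and -0.17 for Prim2. Pola1 had 112, 132 and 113 CPM in the knockouts, against 129, 144 and 108 CPM in the controls. Pola2 had 73.3, 69.5 and 73.7 CPM in the knockouts, against 66.5, 73.0 and 66.7 CPM in the controls. The groups overlapped for all 4 of these genes, and the smallest edgeR adjusted p among them was 0.457.

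Fen1, the nuclease that trims the flaps of Okazaki fragments, had the smallest p of the list. It had 103, 96.5 and 95.2 CPM in the knockouts, against 114, 130 and 106 CPM in the controls. All knockouts were below all controls, with knockout 1 and control 3 the nearest to each other. The log2 fold change was -0.25 ± 0.09 (SE), 15.8% lower, with an unadjusted p of 0.0206 and an edgeR adjusted p of 0.182. Without control 2 it was -0.16 with an edgeR adjusted p of 0.364, and without knockout 2 it was -0.24 with 0.124. The smallest edgeR adjusted p of Fen1 under the other settings was 0.112, with the replicate number as a block. Lig1, the ligase that then seals the fragments, had 206, 229 and 211 CPM in the knockouts and 200, 207 and 202 CPM in the controls. Knockout 1 was below control 2, and the log2 fold change of Lig1 was 0.09 ± 0.07.

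**Figure D4:**
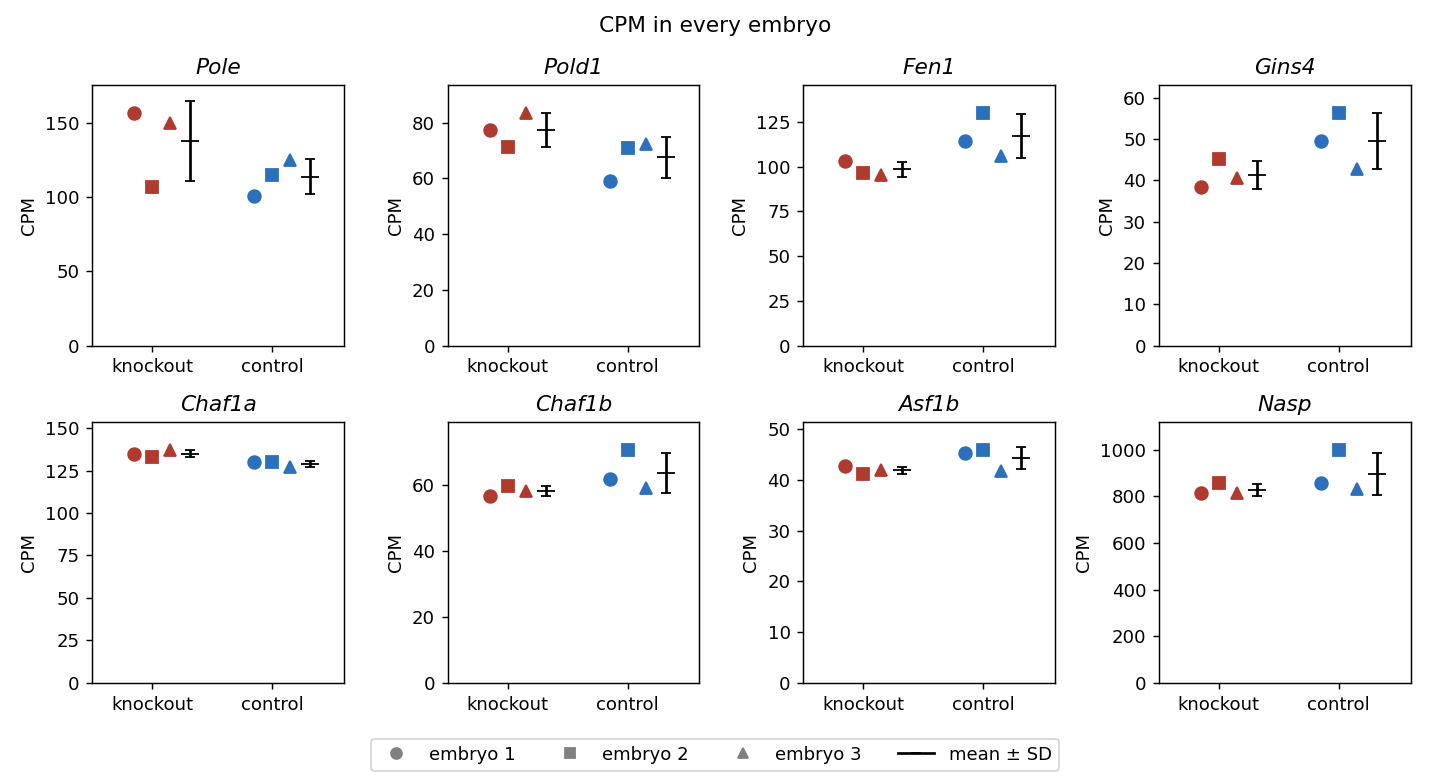
CPM of 8 genes (y axes, from 0) in each knockout embryo (red, left) and control embryo (blue, right), with embryo 1 as a circle, 2 as a square and 3 as a triangle and the mean ± SD of 3 embryos in black. Fen1 and Chaf1a are the only ones of the 8 whose groups do not overlap.

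Genes that supply deoxynucleotides had log2 fold changes from -0.19 to -0.10, none called. Rrm1, the large subunit of ribonucleotide reductase, had 481, 543 and 489 CPM in the knockouts, against 561, 654 and 515 CPM in the controls. Its small subunit Rrm2 had 345, 290 and 355 CPM in the knockouts, against 350, 383 and 354 CPM in the controls. Knockout 2 alone was low for Rrm2, while it was the highest knockout for Rrm1. Thymidylate synthase, encoded by Tyms, had 89.0, 85.5 and 90.6 CPM in the knockouts, against 98.2, 109 and 89.8 CPM in the controls. Thymidine kinase, encoded by Tk1, had 49.6, 51.2 and 51.5 CPM in the knockouts, against 51.6, 62.6 and 49.1 CPM in the controls. The smallest edgeR adjusted p of the 4 genes was 0.316, for Tyms. Under the other settings the smallest was 0.094, for Rrm2 with the share of alignments outside genes as a covariate.

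The chaperones that bring histone H3 to replicated DNA showed no call in embryos that lack most H3f3a transcript. Chaf1a, the large subunit of CAF-1, had 135, 133 and 137 CPM in the knockouts, against 130, 130 and 127 CPM in the controls. All knockouts were above all controls, by a log2 fold change of only 0.06 ± 0.06 (SE) and with an edgeR adjusted p of 0.612. Chaf1b, the middle subunit, had 56.6, 59.6 and 58.1 CPM in the knockouts, against 61.7, 70.5 and 58.9 CPM in the controls, where knockout 2 lay above control 3. Asf1b, which hands dimers of H3 and H4 to CAF-1, had 42.7, 41.2 and 41.9 CPM in the knockouts, against 45.3, 45.9 and 41.8 CPM in the controls. Nasp, which keeps a reserve of soluble histone H3, had 812, 856 and 813 CPM in the knockouts, against 857, 997 and 831 CPM in the controls. The log2 fold changes of these last 3 genes were -0.13 ± 0.09 for Chaf1b, -0.08 ± 0.08 for Asf1b and -0.11 ± 0.09 for Nasp. The 4 intervals ran from -0.327 for Chaf1b to 0.204 for Chaf1a.

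Ratios within an embryo need no scaling of libraries, and 9 pairs of genes were compared in this way, chosen after their values were seen. The log2 ratio of Chaf1a to Chaf1b counts was 1.26, 1.15 and 1.23 in the knockouts, against 1.08, 0.89 and 1.11 in the controls. All knockouts were higher, at an exact two-sided permutation p of 0.1, and 0.36 after adjustment over the 9 pairs. As 0.1 is the smallest p that 3 against 3 embryos can give, no pair could have been called at 0.05. The adjustment does not cover the choice of the pairs, so these p-values are description only. The log2 ratio of Pole to Pcna was -1.22, -1.96 and -1.31 in the knockouts, against -2.08, -2.16 and -1.65 in the controls. Control 3 was above knockout 2, and the exact permutation p was 0.2. Ccne1 and Ccne2 were nearly equal in counts, with log2 ratios of 0.03, -0.11 and -0.03 in the knockouts, against 0.03, -0.03 and -0.02 in the controls.

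Levels per length, as CPM per kb of the longest principal GENCODE transcript, spanned a wide range with much the same order in both groups. Nasp was highest, at 390 ± 11.9 CPM per kb in knockouts and 423 ± 42.2 in controls (SD, n = 3 each), followed by Pcna at 253 ± 18.1 and 292 ± 39.5. The helicase subunits were close to each other, from 80.7 for Mcm4 to 122 for Mcm6 in knockouts and from 84.0 to 129 in controls for the same genes. Mcm6 and Mcm7 overlapped in mean ± SD per kb in both groups, and Mcm3 overlapped Mcm2 and Mcm5. Mcm2 and Mcm5 overlapped in controls, but in knockouts they fell just short of it, at 87.5 ± 1.65 and 83.3 ± 2.46. The subunits of ribonucleotide reductase had higher means, with Rrm1 at 126 ± 8.44 in knockouts and 144 ± 17.7 in controls, and Rrm2 at 150 ± 16.0 and 165 ± 8.21. The mean ± SD of Rrm1 overlapped those of Mcm6 and Mcm7 in both groups. Levels per kb of different genes were not compared within each embryo. Subunits of CAF-1 were lower, with Chaf1a at 24.4 ± 0.361 in knockouts and 23.3 ± 0.313 in controls, and Chaf1b at 30.2 ± 0.78 and 33.1 ± 3.15. Gins2 had the lowest mean, close to that of Gins3, at 9.50 ± 1.05 in knockouts and 10.2 ± 1.45 in controls. Lengths come from 1 transcript model a gene, so small differences in level per kb between genes are uncertain. Of the 3900 bases used for Gins2, 2758 overlap exons of Gse1, and of the 5535 used for Chaf1a, 2692 overlap those of Ubxn6. The strand setting of the counting is not given, so the low levels of Gins2 and Chaf1a are less certain still.

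**Figure D5:**
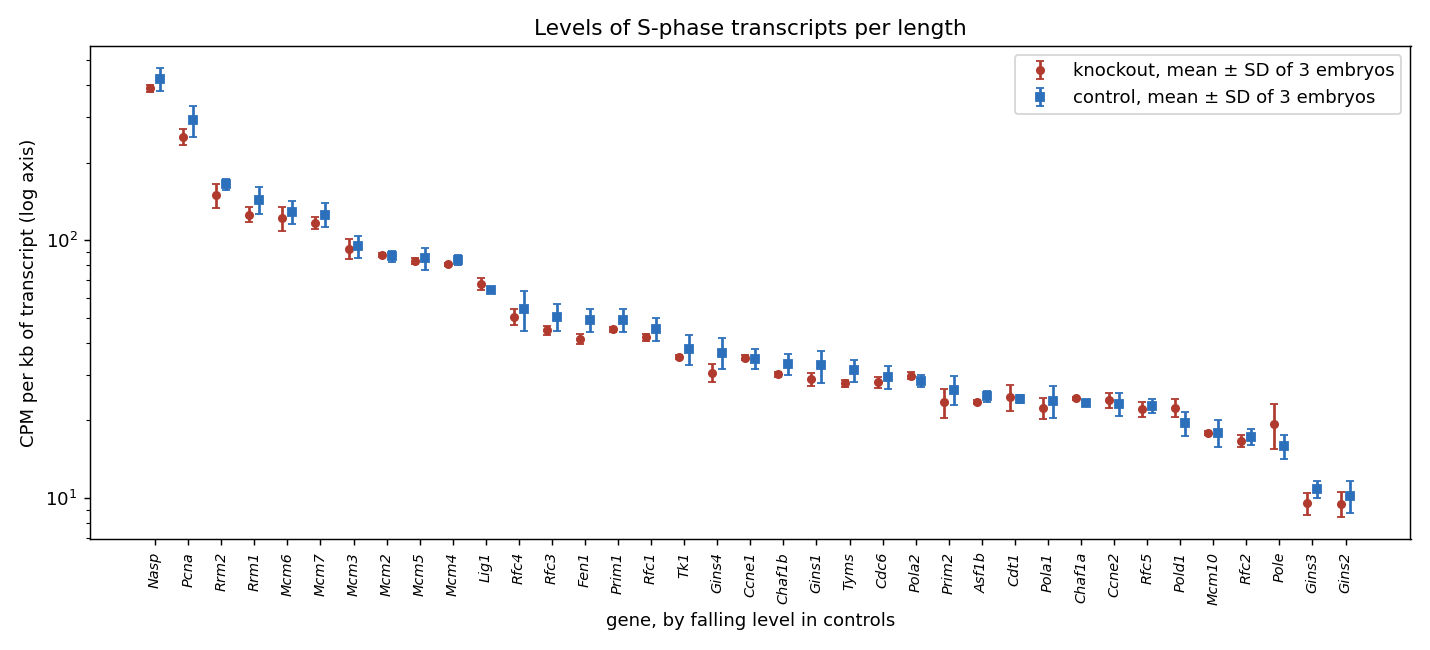
Levels of the 37 transcripts in CPM per kb (log axis) by falling level in controls, as mean ± SD of 3 knockout embryos (red circles) and 3 control embryos (blue squares). Nasp and Pcna lead in both groups, and Gins3 and Gins2 are the lowest in both.

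The rest of the replication machinery was described from a list of 83 further genes, all of which were tested. By edgeR 0 were called higher and 0 lower, and limma-voom called 0. At an unadjusted p under 0.05, 7 of the 83 were higher and 2 lower, both smaller shares than the 10.7% and 8.53% of all tested genes. Their median log2 fold change was -0.001, with 41 values above 0 and 42 below, beside the same median over all tested genes. Cdk6, a kinase of G1, had the smallest p, with 345, 392 and 410 counts in the knockouts, against 289, 309 and 305 counts in the controls. In CPM it averaged 13.9 ± 0.602 in knockouts and 10.4 ± 0.443 in controls (SD, n = 3 each). Its log2 fold change was 0.42 ± 0.11 (SE), with an edgeR adjusted p of 0.0912, and DESeq2 called it with an adjusted p of 0.0327, where DESeq2 called 3.02% of all genes higher. Next came the D-type cyclin Ccnd3 at 0.24, the deubiquitinase Usp1 at -0.22 and E2f1, a transcription factor of S-phase genes, at 0.23, with edgeR adjusted p-values from 0.175 to 0.196.

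Others of the 8 smallest p-values were the origin firing kinase Cdc7 at 0.32, the histone importer Ipo4 at 0.18, Supt16, a subunit of the FACT histone chaperone, at -0.22, and the maintenance methyltransferase Dnmt1 at 0.17. Their edgeR adjusted p-values ran from 0.207 to 0.253. Cdc7 had 78.5, 59.6 and 79.4 CPM in the knockouts, against 51.0, 62.5 and 60.3 CPM in the controls, so knockouts 1 and 3 were above all controls and knockout 2 was not. Without knockout 2 it was called, at 0.45 with an edgeR adjusted p of 0.0159, as were Cdan1 at 0.46 and Tonsl at 0.37, both listed for the handling of histones H3 and H4. These 3 of 83 genes are a smaller share than the 7.55% of all genes called higher in the same fit. Among the parts of this list, genes of the E2F factors and of G1/S control had 14 of 23 values above 0 and a median of 0.02. Genes of origin recognition and firing had 11 of 16 above 0 and a median of 0.03. Fork and polymerase subunits had 16 of 26 below 0 and a median of -0.08, and deoxynucleotide supply had 6 of 8 below 0 and a median of -0.09. Genes that handle histones H3 and H4 at forks had 6 of 10 below 0 and a median of -0.01.

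Markers of other cells and states were read in the same libraries, since the embryos hold many tissues. Genes of mitosis, which the same dividing cells use after S phase, had 0 of 16 called by edgeR. At an unadjusted p under 0.05, 3 were lower, beside 8.53% of all tested genes. Of their log2 fold changes 14 of 16 were below 0, with a median of -0.13, beside 50.3% and -0.001 over all tested genes. Their summed CPM was 4701, 4683 and 4673 in the knockouts, against 5080, 5634 and 4897 in the controls. All knockouts were thus below all controls in this sum, and control 2 was again the highest. The sum was led by Mki67 and Top2a, and the groups overlapped for both. Gene by gene, the groups overlapped for 10 of the 16. They did not overlap for 5 that were lower and 1 that was higher, beside 12.3% and 11.8% of all tested genes. Macrophage genes were called lower in 11 of 12, where edgeR called 0.955% of all tested genes lower and 0.551% higher. Their summed CPM was 3.51 to 5.01 in knockouts against 70.4 to 85.2 in controls. C1qb and C1qc had 0 counts in all 3 knockouts. Differentiating neurons had 1 of 12 genes called lower, with 11 of 12 log2 fold changes below 0 and a median of -0.31. They summed to 906 to 1210 CPM in knockouts against 1088 to 1465 CPM in controls. Neural progenitors had 0 of 10 called, with 8 of 10 values below 0 and a median of -0.16. They summed to 928 to 996 CPM in knockouts and 1014 to 1167 CPM in controls. Erythroid genes had 0 of 11 called, at a summed 5739 to 9394 CPM in knockouts and 7820 to 9985 CPM in controls. Endothelial genes had 1 of 12 called higher, with 10 of 12 values above 0 and a median of 0.31. Their summed CPM was 447 to 608 in knockouts against 409 to 428 in controls. Heart muscle genes had 1 of 10 called higher and 6 of 10 values below 0. They summed to 582 to 652 CPM in knockouts against 541 to 560 CPM in controls. Genes of the response to low oxygen had 1 of 12 called higher, with all 12 values above 0 and a median of 1.17. Their summed CPM was 2044, 5743 and 2762 in knockouts 1, 2 and 3 against 1720 to 2158 in controls. Markers of blood, heart, neural and vascular cells were thus present in both groups, as a whole embryo would hold. The part of these markers in the levels of the S-phase genes was not tested.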

How the data were processed

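The authors deposited whole-number counts per gene symbol for each embryo, with no normalization. Per the labels' protocols, libraries were prepared from poly(A) RNA by a strand-marking KAPA method. Trimmomatic, Bowtie2, TopHat2, HTSeq and the mm9 build are listed, without versions, per the submitters' processing notes. Neither the annotation nor whether HTSeq counted by strand is given in the sources used here. The 5 HTSeq rows that name no gene stayed out of tests; reads outside genes made up 9.79% to 18.3% and alignments that were not unique 18.2% to 22.6% of each library. Copies of a sequence elsewhere in the genome, such as pseudogenes of Pcna, Nasp and Tyms, can therefore lower a count. Tables of counts per repeat name were not used here.

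Tests across genes used the quasi-likelihood method of edgeR 4.0.16 under R 4.3.3 (robust, TMM, filterByExpr at 10 counts and a total of 15, group as the only term, all 6 embryos), with Benjamini-Hochberg adjustment over 15075 genes and a threshold of 0.05. The script was tested on simulated data in which all genes had the same scatter. No statement here about the absence of calls rests on that test. Standard errors were obtained by dividing the absolute log2 fold change by the root of the F statistic. CPM uses TMM-scaled library sizes, and differences from the control mean add 0.5 CPM. Alternatives were RLE, upper quartile and library-total scaling, DESeq2 1.42.0, limma-voom (limma 3.58.1), other filters and thresholds, no robust priors, a replicate block, ribosomal RNA left out, a covariate for alignments outside genes, and each embryo left out. Lengths came from GENCODE M21 and promoters from RefSeq, both on GRCm38, not mm9. Libraries are distinct, with chi-square values per degree of freedom of 13.0 to 107 between any 2. The replicate numbers of the titles were not taken to pair the embryos.

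The members and all lists were chosen with earlier results of these data known. All members were named, and of the 83 other genes the 8 with the smallest p. Cdan1, Tonsl and the other subunits of polymerases delta and epsilon were named after their values were seen. No set test was run.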

Additional observations from a re-analysis of the deposited data

How the results depend on the processing

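No member was called under 16 of the 17 other settings, and under the other, without knockout 2, 1 was called higher, namely Pole. The median log2 fold change of the members ran from -0.141 to 0.005 when 1 embryo was left out and from -0.103 to -0.037 otherwise. Of 629 member values under other settings, 37 had another sign than the value reported. Of the 83 other replication genes, 1 was called higher by DESeq2, 2 with a covariate for alignments outside genes, 3 without knockout 2 and 1 at an adjusted p under 0.1. Leaving out 1 embryo gave 0 to 3 of them. Over all genes, 83 were called higher and 144 lower. DESeq2 called 456 and 323, the covariate 437 and 311, a threshold of 0.1 gave 272 and 256, and a stricter filter of 50 counts in 3 libraries 41 and 60. With no filter 144 were higher. Leaving out 1 embryo gave 7 higher and 53 lower without control 2, and 1159 higher and 504 lower without knockout 2, as the lowest and highest counts. The cause was not tested. The replicate number as a block gave 333 higher and 256 lower over all genes and 0 members. Correlations of deviations between same-numbered embryos were -0.100, 0.227 and 0.308, and knockout 1 correlated best with control 3, and the numbers were therefore not taken to pair embryos.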
